A study of Mus musculus with 18 samples.

Results

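Whether a vitamin A-enriched diet was followed by a different bladder response to cyclophosphamide was read from 1 contrast per gene. It is the diet difference 1 day after cyclophosphamide minus the diet difference 1 day after saline, on the log2 scale, and is called the interaction here. It draws on 12 of the 18 RNA libraries of the study and on all 46333 named genes of the deposited count table, of which 19323 passed the filter on low counts and were tested. No gene passed an adjusted p of 0.05 (edgeR, 0 of 19323, 0%). The genes below are therefore described by their values, many with a standard error (SE) and an adjusted p. Gene lists are described by counts at an unadjusted p under 0.05. The 12 genes of smallest p in each direction include the glucose transporter gene Slc2a1 and the growth signalling genes Epha2 and Dusp6 above 0, and the antigen presentation genes H2-Aa and H2-Eb1 and the detoxification gene Gsta3 below 0.

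All libraries were made from whole urinary bladders of wild-type female BALB/c mice aged 8 weeks. The 4 groups of 3 mice were mice on the vitamin A-enriched diet 1 day after cyclophosphamide (150 mg/kg by intraperitoneal injection), mice on the normal diet 1 day after cyclophosphamide, mice on the enriched diet 1 day after saline, and mice on the normal diet 1 day after saline. The enriched diet began 1 week before the injection. The sample labels give it as 566081 UI of retinyl acetate per kg, whereas the study's own overview gives 36 times more vitamin A, as retinyl palmitate. Mice were housed in groups of 3, and with no cage given for each mouse, cage and diet group cannot be told apart.

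Cyclophosphamide is an alkylating drug whose breakdown product acrolein is concentrated in urine and injures the urothelium, the stratified lining of the bladder, which then regrows from its basal and intermediate layers. Vitamin A is stored as retinyl esters and oxidised through retinal to retinoic acid, which binds nuclear receptors and directs epithelial differentiation, and an excess of it is broken down by the enzyme encoded by Cyp26b1. A positive interaction means that the ratio of vitamin A over normal diet was larger after cyclophosphamide than after saline. It means equally that the response to cyclophosphamide was more positive on the enriched diet, since the 2 readings are the same sum of 4 group means. For a gene given with its values after the drug only, the interaction also holds its diet difference after saline.

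The 12 libraries held 19554132 to 34598952 counts each, and mitochondrial genes took 2.18% to 3.82% of the named gene counts. Genes shorter than 1000 bases took 7.47% to 10.8%. The third vitamin A bladder after cyclophosphamide had the highest mitochondrial share and the highest summed level of the listed adipocyte genes (4820 CPM, against 1120 to 2910 CPM in the other 11 libraries, where CPM is the count scaled to a library total of 1e+06 named gene counts). The third vitamin A bladder after saline had the highest summed level of the antigen presentation list, given below. The smooth muscle markers Acta2, Myh11, Actg2 and Des were at 895 CPM or more in all 12 libraries, the 5 umbrella cell markers at 50.7 or more, and the basal markers Krt5, Krt15 and Trp63 at 176 or more, while the basal marker Krt14 ranged from 0.813 to 135 CPM. The lymphocyte marker Cd3e reached at most 3.29 CPM, and the kidney marker Umod was at 0. In whole bladders, fewer cells of a type and less RNA per cell cannot be told apart.

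The interaction was measured with limited precision. Its standard error had a median of 0.355 over the 19323 genes, and the 95% interval reached 0.745 to either side of the median gene. For 8941 genes (46.3%) that interval lay wholly between -1 and 1, so an interaction larger than a doubling of the ratio was outside the interval for those genes. The smallest unadjusted p was 9.3e-06 and the smallest adjusted p 0.093, which 7 genes shared. At an unadjusted p under 0.05 there were 1505 genes (7.79%), where 966 would be expected if no gene differed. Of these, 715 (3.7%) were above 0 and 790 (4.09%) below, and the median interaction over all genes tested was -0.017. The shares of 3.7% above and 4.09% below are the background for the counts of every gene list below.

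The count of 0 depended on the test. DESeq2 on the same libraries called 116 of the 19626 genes it gave an adjusted p, at the threshold of 0.05. Limma-voom with a quality weight for each library called 178. EdgeR without the filter on low counts called 25, and edgeR on the 12 libraries alone called 19. The 24 genes of smallest p in edgeR, chosen with the cut on mean log2 CPM, were all among the calls of DESeq2. Genes outside the 24 were called too, such as those of the ribosomal proteins Rps27 and Rpl36. Rps27 had -1.90 (adjusted p = 0.00174) in limma-voom and -1.75 (adjusted p = 0.00984) in edgeR on the 12 libraries. Rpl36 had -1.25 (adjusted p = 0.00777) and -1.24 (adjusted p = 0.0292) in these tests. Leaving out the first vitamin A bladder after cyclophosphamide gave 39 calls in edgeR, 20 of them genes described here such as Slc2a1, Epha2 and H2-Aa, leaving out the third normal diet bladder after saline gave 9, and leaving out the second vitamin A bladder gave 3 after cyclophosphamide and 2 after saline.

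Each pair of diet groups on its own differed at more genes after the drug than after saline. After cyclophosphamide 46 genes (0.238%) were higher and 44 (0.228%) lower on the enriched diet, and after saline 2 genes (0.0104%) were higher and 0 lower. These counts do not show by themselves that the diet differences differ, which is what the interaction tests. Across the 19323 genes the diet difference after cyclophosphamide and the one after saline, which share no library, had a Pearson correlation of -0.0312 and a Spearman correlation of -0.0361. Cyclophosphamide against saline gave 1979 higher (10.2%) and 1748 lower genes (9.05%) on the enriched diet, against 1403 higher (7.26%) and 868 lower (4.49%) on the normal diet. Those responses on the 2 diets, again with no library in common, had a Pearson correlation of 0.601 across genes.

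The 24 genes of smallest p shared 1 pattern. In all 24 the diet difference had opposite signs after cyclophosphamide and after saline, and in all 24 the vitamin A and normal diet bladders did not overlap after cyclophosphamide, against 15.7% of all genes tested. After saline 7 of the 12 above 0 and 6 of the 12 below 0 did not overlap, against 15.3% of all genes tested. The difference after cyclophosphamide was the larger in 11 of the 12 genes above 0 and in 12 of the 12 below. The diet difference after cyclophosphamide passed the edgeR test on its own in 8 of the 12 above 0 and 11 of the 12 below 0, and the one after saline in 0 of 24. Gm39876, a long noncoding RNA gene, was the 1 gene whose diet difference was larger after saline (-1.79, against 1.45 after the drug). These features follow in part from the choice of genes by the interaction p, so they describe the genes and test nothing.

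**Figure D1:**
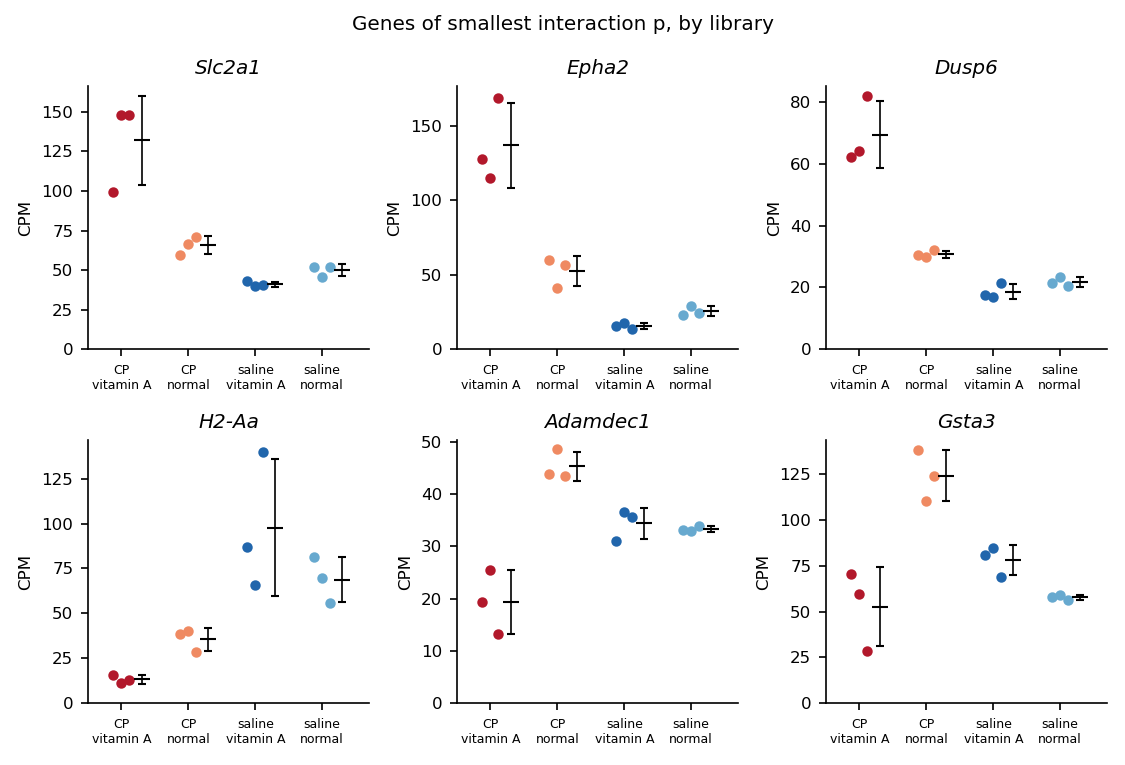
CPM of 6 genes of small interaction p in each of the 12 bladders, with vitamin A left of normal diet and cyclophosphamide (CP) left of saline. Points are single bladders and the bars beside them are the mean and SD of 3. Slc2a1, Epha2 and Dusp6 are highest in the vitamin A bladders after CP, and H2-Aa, Adamdec1 and Gsta3 are lower there than in normal diet bladders after CP.

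**Figure D2:**
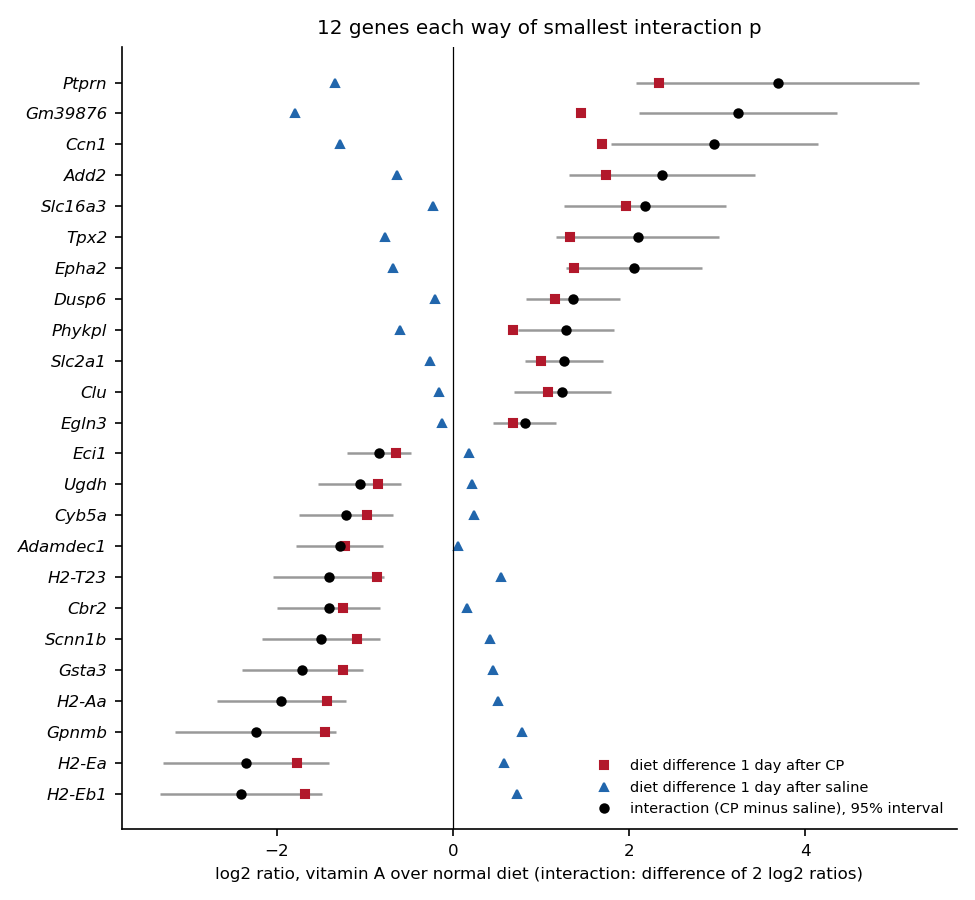
Interaction log2 with its 95% interval for the 12 genes of smallest p in each direction, beside the diet difference after CP (squares) and after saline (triangles). All 24 intervals lie to one side of 0 before adjustment, and squares and triangles sit on opposite sides of 0 in each gene.

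Slc2a1 and the lactate export gene Slc16a3 were among the 12 genes of smallest p above 0. Slc2a1 (chromosome 4, 118965942 to 118994527, GRCm39) encodes the glucose transporter GLUT1. After cyclophosphamide it had 99.2, 148 and 148 CPM in vitamin A bladders, against 59.6, 66.3 and 71.0 in normal diet bladders. After saline it had 42.9, 39.9 and 40.7 CPM in vitamin A bladders, against 51.7, 45.6 and 52.3 in normal diet bladders. The order of the diets was thus turned round after saline, and neither pair of groups overlapped. The interaction was 1.26 (SE 0.212, 95% interval 0.81 to 1.70, adjusted p = 0.093 in edgeR).

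Slc16a3, the lactate and proton exporter MCT4, had 24.4, 47.1 and 48.7 CPM in vitamin A bladders after cyclophosphamide, against 7.41, 11.7 and 11.6 in normal diet bladders. After saline its values overlapped between diets, at 9.64, 7.59 and 12.9 CPM on vitamin A and 7.91, 15.8 and 11.7 on normal diet. The interaction was 2.18 (SE 0.44, adjusted p = 0.117). Egln3, a prolyl hydroxylase that marks hypoxia-inducible factors for destruction and is itself induced by them, had 78.2, 90 and 86.8 CPM in vitamin A bladders after cyclophosphamide. In normal diet bladders it had 49.6, 57.4 and 50.2 CPM after the drug, and the 6 saline bladders ranged from 48.2 to 65.3 CPM. Its interaction was 0.82 (SE 0.171, adjusted p = 0.117).

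Of 30 listed glycolysis and hypoxia genes, 26 were above 0 with a median of 0.458, and 9 above against 0 below had an unadjusted p under 0.05. Over all genes tested those shares were 3.7% above and 4.09% below. The 9 also include the glycolytic enzyme genes Eno1 (0.51), Pgk1 (0.67), Hk1 (0.47) and Pfkl (0.56), the hypoxia-induced Ndrg1 (0.86) and the oxidoreductase gene Ero1a (0.50), with interactions on the log2 scale in brackets. None passed in edgeR, while DESeq2 called 5 of the 30, namely Pgk1, Pfkl, Slc2a1, Egln3 and Slc16a3. The mean level of the list was 6.47 to 6.62 on the log2(CPM + 1) scale in vitamin A bladders after cyclophosphamide and 5.96 to 6.10 in normal diet bladders, against 5.90 to 5.94 and 5.82 to 5.88 in vitamin A and normal diet bladders after saline. The median of the list stayed between 0.38 and 0.491 under all 19 alternative settings.

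Other genes of smallest p above 0 had varied roles. Clu, a secreted chaperone, had 806, 1330 and 1110 CPM in vitamin A bladders after cyclophosphamide, against 456, 581 and 487 in normal diet bladders. The 6 saline bladders ranged from 207 to 271 CPM, and the interaction was 1.24 (SE 0.261, adjusted p = 0.117). Ptprn, a protein of dense-core vesicles, had 4.37, 11.8 and 8.21 CPM in vitamin A bladders after the drug, against 1.53, 1.45 and 1.80 in normal diet bladders (3.69, SE 0.765). Part of that interaction is its diet difference after saline, which had the opposite sign. The membrane skeleton gene Add2 and the phospholyase gene Phykpl had interactions of 2.37 (SE 0.503) and 1.29 (SE 0.26). Below 0, the sodium channel subunit gene Scnn1b had -1.50 (SE 0.32), and Eci1, of mitochondrial fatty acid oxidation, had -0.84 (SE 0.175).

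Epha2, Dusp6 and Ccn1, which take part in cell signalling, were also among the 12 above 0. Epha2 (chromosome 4, 141028532 to 141056695) encodes an ephrin receptor tyrosine kinase of epithelia. It had 128, 115 and 169 CPM in vitamin A bladders after cyclophosphamide, against 60, 41.2 and 56.4 in normal diet bladders. In saline-treated mice it had 15.9, 17.5 and 13.8 CPM in vitamin A bladders, against 23.2, 29.2 and 24.3 in normal diet bladders. Both pairs of groups were separate, in opposite orders, and the interaction was 2.06 (SE 0.367, adjusted p = 0.093). Both diets showed more Epha2 after the drug than after saline (log2 3.09 on vitamin A, adjusted p = 9.76e-07, and 1.04 on normal diet, adjusted p = 0.0138).

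Dusp6 (chromosome 10, 99098676 to 99103351), a phosphatase that switches off ERK kinases and is induced by them, had 62.2, 64.1 and 81.9 CPM in vitamin A bladders after cyclophosphamide, against 30.4, 29.9 and 32.0 in normal diet bladders. After saline the diets overlapped, at 17.7, 16.8 and 21.5 CPM on vitamin A and 21.4, 23.5 and 20.4 on normal diet. The interaction was 1.37 (SE 0.255, adjusted p = 0.0972). Ccn1, a matrix-associated signalling protein gene, had 24.9, 32.0 and 51.3 CPM in vitamin A bladders after cyclophosphamide, against 7.98, 9.72 and 15.6 in normal diet bladders. The saline values were 4.82, 4.63 and 4.04 CPM in vitamin A bladders, against 5.47, 11.5 and 16.2 in normal diet bladders, which spread widely. Its interaction was 2.97 (SE 0.559, adjusted p = 0.0972), and its response to the drug was 2.97 on vitamin A (adjusted p = 5.49e-05) and 0.00 on normal diet (adjusted p = 0.999).

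Immediate early genes are transcribed within minutes of a stimulus. Of 32 listed immediate early and stress genes, 13 (40.6%) were above 0 and 0 below at an unadjusted p under 0.05. Over all genes tested those shares were 3.7% and 4.09%, and the list median was 0.618. Fos, a subunit of the transcription factor AP-1, had 92.0, 103 and 89.2 CPM in vitamin A bladders after cyclophosphamide, against 23.4, 17.8 and 22.0 in normal diet bladders. Its saline values were 11.6, 14.9 and 15.2 CPM in vitamin A bladders, against 11.3, 31.6 and 50 in normal diet bladders. The 2 diets were far apart after the drug and overlapped after saline, where the third normal diet bladder was high. The interaction was 3.30 (SE 0.822, adjusted p = 0.228), and 2.78 without that bladder. Egr1 (4.16, SE 1.1), Klf6 (1.02, SE 0.234) and Dusp1 (1.61, SE 0.496) lay above 0 as well, and DESeq2 called Klf6, Egr1 and Fos of the list. For Egr1 the diet difference was larger after saline (-2.32, against 1.84 after the drug). Without 1 library the list median ran from 0.471 to 0.757.

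Among 17 listed epidermal growth factor receptor ligands, receptors and feedback genes, 9 were above 0 and 8 below with a median of 0.165, which ran from 0.0886 without the third normal diet bladder after saline to 0.281 without the first vitamin A bladder after the drug. Of these, 4 were above 0 and 1 below at an unadjusted p under 0.05. The ligand gene Hbegf had 21.7, 41.2 and 53.4 CPM in vitamin A bladders after cyclophosphamide, against 12.9, 7.55 and 11.9 in normal diet bladders, and 4.20 to 8.00 CPM in the 6 saline bladders. Its interaction was 1.72 (SE 0.494, adjusted p = 0.308). The feedback inhibitor genes Spry2 and Spry4 had interactions of 1.21 and 0.88. The ligand genes Areg (1.84, SE 1.34, and 1.03 without the third vitamin A bladder after the drug) and Ereg (-0.06, SE 0.697) had wide intervals that held 0. Of 35 matrix remodelling and wound genes, 8 were above and 2 below 0 at that level, with a median of 0.462, or 0.253 without the third vitamin A bladder after the drug.

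The mitosis list had the highest median of the 35 lists, at 1.02. Of its 36 genes 35 were above 0, and 15 (41.7%) above against 0 below had an unadjusted p under 0.05. Over all genes tested those shares were 3.7% above and 4.09% below. Tpx2, which assembles the mitotic spindle, had 64.8, 43.5 and 29.2 CPM in vitamin A bladders after cyclophosphamide, against 17.7, 25.1 and 11.5 in normal diet bladders. After saline it had 1.95, 2.72 and 3.17 CPM in vitamin A bladders, against 4.49, 5.26 and 3.72 in normal diet bladders. Neither pair overlapped, and the interaction was 2.10 (SE 0.443, adjusted p = 0.117). Tpx2 was the 1 gene of the list that DESeq2 called.

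The mitosis genes rose after cyclophosphamide on either diet, at medians of 4.71 on vitamin A and 3.61 on normal diet. On each diet 35 of 36 passed as higher, against 10.2% of all genes tested on vitamin A and 7.26% on normal diet. The kinase gene Plk1 had 44.0, 31.2 and 17.4 CPM in vitamin A bladders after the drug, against 5.30, 13.9 and 2.25 in normal diet bladders, and 0.537 to 2.01 CPM in the 6 saline bladders (interaction 2.25, SE 0.774, adjusted p = 0.428). The proliferation marker Mki67 had 198, 124 and 99.9 CPM in vitamin A bladders after the drug, against 49.0, 69.5 and 29.5 in normal diet bladders. Its saline values were low and uneven, at 4.27, 1.63 and 8.88 CPM on vitamin A and 3.71, 1.82 and 1.92 on normal diet, and its interaction was 0.49 (SE 0.71, adjusted p = 0.94). It ran from 0.08 without the second to 1.13 without the third vitamin A bladder after saline. Bladders within a diet differed: the summed level of the mitosis list was 2009, 1136 and 822 CPM in vitamin A bladders after the drug and 474, 843 and 283 CPM in normal diet bladders, so the third vitamin A and the second normal diet bladder overlapped. The median of the list was 0.637 without the first vitamin A bladder and 1.58 without the second normal diet bladder after the drug.

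Genes of DNA replication had smaller interactions. Of 36 listed, 35 were above 0 with a median of 0.468, but only Pola1 (0.72) and Cdc45 (0.93) had an unadjusted p under 0.05, and DESeq2 called none. The helicase subunit gene Mcm3 had 85.6, 103 and 80.5 CPM in vitamin A bladders after cyclophosphamide, against 49.2, 70.6 and 49.6 in normal diet bladders, and 9.96 to 12.2 CPM in the 6 saline bladders (interaction 0.74, SE 0.384). The p53 target Cdkn1a, which halts the cycle after DNA damage, had an interaction of -0.09 with a 95% interval of -0.45 to 0.27. Its response to the drug was 1.91 on vitamin A (adjusted p = 1.79e-07) and 2.00 on normal diet (adjusted p = 8.96e-08). Among 35 p53 targets the median interaction was 0.119, or -0.0134 without the first vitamin A bladder after the drug. Of them 2 (5.71%) were above 0 and 0 below at an unadjusted p under 0.05, against 3.7% and 4.09% of all genes tested.

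**Figure D3:**
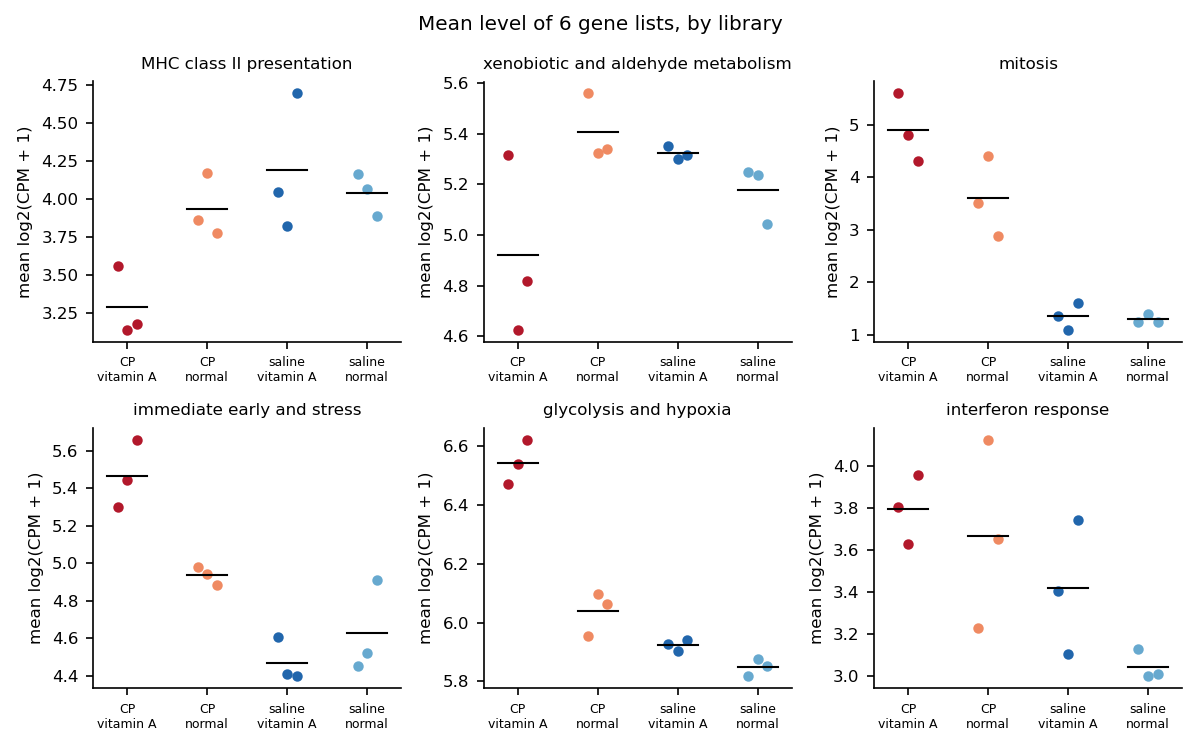
Mean log2(CPM + 1) over the tested members of 6 gene lists in each of the 12 bladders, with the group mean as a line. Vitamin A bladders after CP stand apart from the 3 normal diet bladders after CP in the antigen presentation, immediate early and glycolysis lists, and overlap with them in the mitosis and interferon lists. Axes do not start at 0.

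Genes of antigen presentation formed a set below 0. Class II molecules of the major histocompatibility complex are pairs of an alpha and a beta chain that show peptides to helper T cells, and are made mainly by dendritic cells, macrophages and B cells. H2-Aa (chromosome 17, 34501718 to 34506797), an alpha chain, had 15.8, 11.2 and 13.0 CPM in vitamin A bladders after cyclophosphamide, against 38.6, 40.1 and 28.4 in normal diet bladders. In saline-treated mice it had 87.2, 66 and 140 CPM in vitamin A bladders, against 81.1, 69.5 and 55.8 in normal diet bladders. The diets were apart after the drug and overlapped after saline, and the interaction was -1.95 (SE 0.35, 95% interval -2.68 to -1.22, adjusted p = 0.093 in edgeR).

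H2-Eb1, a beta chain, had 11.9, 8.38 and 8.66 CPM in vitamin A bladders after cyclophosphamide, against 28.1, 39.9 and 23.7 in normal diet bladders. The saline values were 65.1, 48.4 and 144 CPM in vitamin A bladders, against 59.6, 47.4 and 48.3 in normal diet bladders. The diets were separate after the drug, and after saline they overlapped, with the third vitamin A bladder far above the rest. The interaction of H2-Eb1 was -2.41 (SE 0.439, adjusted p = 0.093), and H2-Ea had -2.35 (SE 0.451, adjusted p = 0.0991). The invariant chain gene Cd74, which escorts class II molecules, had -1.97 (SE 0.463, adjusted p = 0.154), with 73.0, 31.8 and 33.0 CPM in vitamin A bladders after the drug against 120, 129 and 88.6 in normal diet bladders. H2-T23, a class I-like molecule, had -1.41 (SE 0.299, adjusted p = 0.117). These histocompatibility genes are polymorphic relatives of each other, and no source used here says how reads were shared among them.

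The promoters of H2-Aa and H2-Eb1 are shown because class II genes share upstream boxes that are read together by shared factors. The letters are the 200 bases before the start in RefSeq's GRCm38.p6 table, a reference that is not BALB/c. Capitals mark CCAAT on either strand (ATTGG is CCAAT on the other strand) and, in H2-Aa, TGACGTCA.
H2-Aa, chr17:34287824-34288023, minus strand: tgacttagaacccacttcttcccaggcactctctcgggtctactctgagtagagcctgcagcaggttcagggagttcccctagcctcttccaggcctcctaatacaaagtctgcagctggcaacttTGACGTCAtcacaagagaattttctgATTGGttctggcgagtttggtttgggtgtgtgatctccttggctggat
H2-Eb1, chr17:34305667-34305866, plus strand: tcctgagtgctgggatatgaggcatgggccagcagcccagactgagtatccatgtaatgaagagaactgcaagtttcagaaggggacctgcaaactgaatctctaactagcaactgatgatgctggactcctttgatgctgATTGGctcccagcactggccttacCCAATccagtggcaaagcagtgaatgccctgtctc
In H2-Aa the ATTGG letters begin 48 bases before the start, and the Y box of class II promoters is known as such a reversed CCAAT, while TGACGTCA begins 74 bases before it. In H2-Eb1 ATTGG begins 59 bases before the start and CCAAT 35 bases before it. CCAAT on either strand was found in 29.3% of the 32851 promoter windows of this length, and in 4 of the 9 genes below 0 and 1 of the 9 genes above 0 that the table holds among the 24. TGACGTCA was found in 1.47% of windows, and among the 24 in H2-Aa below 0 and Epha2 above 0.

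Of the 20 listed class II genes, 18 were below 0 with a median of -1.12, and 10 (50%) below against 0 above had an unadjusted p under 0.05. Over all genes tested those shares were 4.09% below and 3.7% above. DESeq2 called 5 of the 20, against 116 of 19626 genes in all, and limma-voom 0. After cyclophosphamide the summed level of the list was 544, 381 and 435 CPM in vitamin A bladders, against 594, 728 and 600 CPM in normal diet bladders. After saline it was 828, 642 and 1414 CPM in vitamin A bladders, against 793, 675 and 642 in normal diet bladders. The diets were apart after the drug and overlapped after saline. Without the third vitamin A bladder after saline, the highest, the list median was -0.477, H2-Aa had -1.65 (adjusted p = 0.193) and H2-Eb1 -1.87 (adjusted p = 0.193).

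Markers of immune cells that carry or meet these molecules lay below 0 beside them. Of 28 lymphocyte genes 25 were below 0 and 6 had an unadjusted p under 0.05 below 0, with 0 above. Their summed level was 19.4, 13.4 and 16.5 CPM in vitamin A bladders after cyclophosphamide, against 18.7, 51.6 and 19.3 in normal diet bladders, and 42.3, 38.5 and 126 CPM against 59.4, 34.9 and 45.6 CPM in vitamin A and normal diet bladders after saline. Their median was -1.78, or -1.63 with a floor of 3 counts per group for the 5 genes that fell under it, and -0.908 without the third vitamin A bladder after saline or -1.07 without the second normal diet bladder after the drug. Of 14 dendritic cell genes 11 were below 0 (median -0.657, 1 at an unadjusted p under 0.05). Of 25 macrophage and monocyte genes 19 were below 0 (median -0.463, and -0.245 and -0.233 without those 2 bladders in turn), 4 of them and 1 above at that level. The part of immune cell numbers in the class II values was not tested.

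Genes of macrophages and of other stromal cells lay on both sides of 0. Gpnmb, a lysosomal glycoprotein gene of macrophages, had 47.0, 18.9 and 19.3 CPM in vitamin A bladders after cyclophosphamide, against 106, 72.1 and 51.9 in normal diet bladders (interaction -2.24, SE 0.434, adjusted p = 0.0996). Part of that interaction is its diet difference after saline, which had the opposite sign. Adamdec1, a secreted metalloprotease gene on chromosome 14, had 19.4, 25.5 and 13.3 CPM in vitamin A bladders after the drug, against 43.9, 48.6 and 43.4 in normal diet bladders. After saline it was level, at 31.0, 36.6 and 35.6 CPM on vitamin A and 33.2, 33.0 and 34.0 on normal diet, and its interaction was -1.29 (SE 0.236, adjusted p = 0.093). The lysozyme gene Lyz2 had -1.26 (SE 0.316) and the receptor gene Csf1r -0.82 (SE 0.316). Spp1, osteopontin, lay above 0 at 2.13 (SE 0.736), with 7.33, 8.85 and 19.5 CPM in vitamin A bladders after the drug, against 1.91, 2.38 and 3.11 in normal diet bladders.

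Detoxification genes made up a further set below 0. Gsta3 (chromosome 1, 21310789 to 21335799) encodes a glutathione S-transferase. It had 70.2, 59.5 and 28.4 CPM in vitamin A bladders after cyclophosphamide, against 138, 110 and 124 in normal diet bladders. Its saline values were 80.9, 84.8 and 69.1 CPM in vitamin A bladders, against 57.9, 58.8 and 56.4 in normal diet bladders. Both pairs were separate, in opposite orders, and the interaction was -1.71 (SE 0.326, adjusted p = 0.0991). Its response to the drug was -0.60 on vitamin A (adjusted p = 0.074) and 1.11 on normal diet (adjusted p = 0.0041).

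Cbr2, a carbonyl reductase gene, had 290, 247 and 180 CPM in vitamin A bladders after cyclophosphamide, against 615, 559 and 512 in normal diet bladders. After saline the diets overlapped, at 210, 182 and 177 CPM on vitamin A and 157, 190 and 167 on normal diet (interaction -1.41, SE 0.28, adjusted p = 0.111). Ugdh makes UDP-glucuronate, the donor for glucuronidation, and had 436, 482 and 301 CPM in vitamin A bladders after the drug, against 813, 604 and 758 in normal diet bladders. Its saline values were 563, 566 and 616 CPM on vitamin A and 542, 476 and 503 on normal diet, and its interaction was -1.06 (SE 0.223, adjusted p = 0.117). Cyb5a, an electron carrier for cytochrome P450 enzymes, had -1.21 (SE 0.252, adjusted p = 0.117).

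The aldehyde dehydrogenase gene Aldh3a1 had 199, 115 and 43.1 CPM in vitamin A bladders after cyclophosphamide, against 466, 353 and 385 in normal diet bladders. The 6 saline bladders ranged from 91.1 to 130 CPM and overlapped between diets. It responded to the drug on normal diet (1.75, adjusted p = 0.00178), while the response on vitamin A did not pass (adjusted p = 0.995), and the interaction was -1.75 (SE 0.457, adjusted p = 0.235). Nqo1, a quinone reductase and a standard target of the transcription factor Nrf2, had 118, 128 and 68.7 CPM in vitamin A bladders after the drug, against 249, 169 and 211 in normal diet bladders. After saline it had 184, 166 and 150 CPM in vitamin A bladders and 146, 136 and 122 in normal diet bladders, the opposite order, with an interaction of -1.33 (SE 0.298, adjusted p = 0.147).

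The promoters of Gsta3 and Ugdh are shown because Nrf2 acts through antioxidant response elements, whose core is written TGACNNNGC here and is in capitals.
Gsta3, chr1:21240385-21240584, plus strand: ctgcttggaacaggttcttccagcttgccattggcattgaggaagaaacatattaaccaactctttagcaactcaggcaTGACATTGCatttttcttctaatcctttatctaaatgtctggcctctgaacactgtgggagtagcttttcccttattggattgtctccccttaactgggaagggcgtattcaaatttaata
Ugdh, chr5:65435843-65436042, minus strand: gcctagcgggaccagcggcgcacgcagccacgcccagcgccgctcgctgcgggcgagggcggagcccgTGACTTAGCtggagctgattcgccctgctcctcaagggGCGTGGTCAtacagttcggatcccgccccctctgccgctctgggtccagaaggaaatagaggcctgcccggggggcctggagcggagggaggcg
The core lies 121 bases before the start in Gsta3, and in Ugdh 132 bases before it and, on the other strand, 94 bases before it. It was found on either strand in 8.6% of the 32851 windows, in 2 of the 9 genes below 0 and in 2 of the 9 genes above 0 that the table holds. The AP-1 letters TGAGTCA were found in 3.66% of windows and in 0 of these 18 genes.

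Among 33 xenobiotic and aldehyde metabolism genes 24 were below 0 with a median of -0.402, or -0.718 without the first vitamin A bladder after the drug. At an unadjusted p under 0.05 there were 12 below (36.4%) and 0 above, against 4.09% and 3.7% of all genes tested. Beyond those named, the 12 include the glucuronosyltransferase genes Ugt1a6a (-1.39), Ugt1a7c (-1.55) and Ugt1a1 (-1.50), which share exons so that their counts are not separate, and the cytochrome P450 genes Cyp2f2 (-2.54) and Cyp1a1 (-3.31). Without the first vitamin A bladder after the drug Cyp2f2 had -4.17 and passed in edgeR (adjusted p = 0.00477), and Ugt1a6a had -2.11. Of 37 Nrf2 target and glutathione genes 29 were below 0 with a median of -0.209, and of -0.117 to -0.355 without 1 library (the first and the second vitamin A bladder after the drug), and 7 below against 0 above were at that level. DESeq2 called 3 genes of the first list and 2 of the second. The third vitamin A bladder after cyclophosphamide was the lowest for Gsta3, Aldh3a1, Nqo1 and Ugdh, and it had the highest adipocyte level and mitochondrial share. Without it their directions held, with -1.42 for Gsta3, -1.36 for Aldh3a1 and -1.11 for Nqo1.

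Genes that handle vitamin A itself did not share a direction. Cyp26b1, whose enzyme breaks down retinoic acid, had 24.2, 10.7 and 14.6 CPM in vitamin A bladders after cyclophosphamide, against 1.34, 1.05 and 2.46 in normal diet bladders. In saline-treated mice it had 42.5, 58.6 and 32.4 CPM in vitamin A bladders, against 4.49, 1.91 and 7.62 in normal diet bladders. The diets were apart in both settings, by 3.32 after the drug (adjusted p = 0.0059) and 3.26 after saline (adjusted p = 0.0035). The interaction was 0.07 (SE 0.534) with a 95% interval of -1.05 to 1.19, which bounds it to little more than a doubling either way.

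Elf5, an epithelial transcription factor gene, had 29.0, 23.6 and 18.4 CPM in vitamin A bladders after cyclophosphamide, against 9.75, 14.2 and 11.7 in normal diet bladders. The saline values were 57.5, 71.7 and 52.1 CPM in vitamin A bladders, against 13.7, 19.1 and 17 in normal diet bladders. Vitamin A bladders were higher in both settings without overlap, by 0.98 after the drug and by 1.88 after saline, and the interaction of -0.90 (SE 0.351, adjusted p = 0.518) did not pass. The retinaldehyde reductase gene Dhrs3 had -0.54 (SE 0.213, and -0.36 without the third vitamin A bladder after the drug), with 273, 288 and 179 CPM in vitamin A bladders after the drug against 246, 243 and 257 in normal diet bladders, and 324, 337 and 368 CPM against 241, 228 and 260 in vitamin A and normal diet bladders after saline. Lrat, which esterifies retinol for storage, had -0.16 with a 95% interval of -1.79 to 1.48, and the receptor gene Rarb -0.23 (-0.81 to 0.34).

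Enzymes on the path to retinoic acid lay on both sides of 0. Aldh1a3, a retinaldehyde dehydrogenase, had 8.68, 13.1 and 20.8 CPM in vitamin A bladders after cyclophosphamide, against 3.20, 4.72 and 2.05 in normal diet bladders, and 1.63 to 3.42 CPM in the 6 saline bladders. Its interaction was 2.24 (SE 0.552, adjusted p = 0.196). Adh7, a retinol dehydrogenase of epithelia that also oxidises other alcohols, had 104, 70.1 and 37.9 CPM in vitamin A bladders after the drug, against 232, 164 and 173 in normal diet bladders. Its saline values were 162, 175 and 159 CPM in vitamin A bladders, against 137, 114 and 128 in normal diet bladders, the opposite order, and the interaction was -1.85 (SE 0.428, adjusted p = 0.154). Aldh1a1 (-0.83, SE 0.27) and Adh1 (-0.86, SE 0.24) lay below 0 too. DESeq2 called Adh7 and Aldh1a3. In all, 8 of 22 retinoid handling genes were above 0 and 14 below, with 1 above and 4 below at an unadjusted p under 0.05, and for 25 retinoic acid receptors and targets the median was 0.105. Without 1 library these medians ran from -0.336 (first normal diet bladder after the drug) to -0.0314 (first vitamin A bladder after saline) for the handling list, whose median was -0.148, and from 0.0453 to 0.165 (the second and the third vitamin A bladder after the drug) for the targets.

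**Figure D4:**
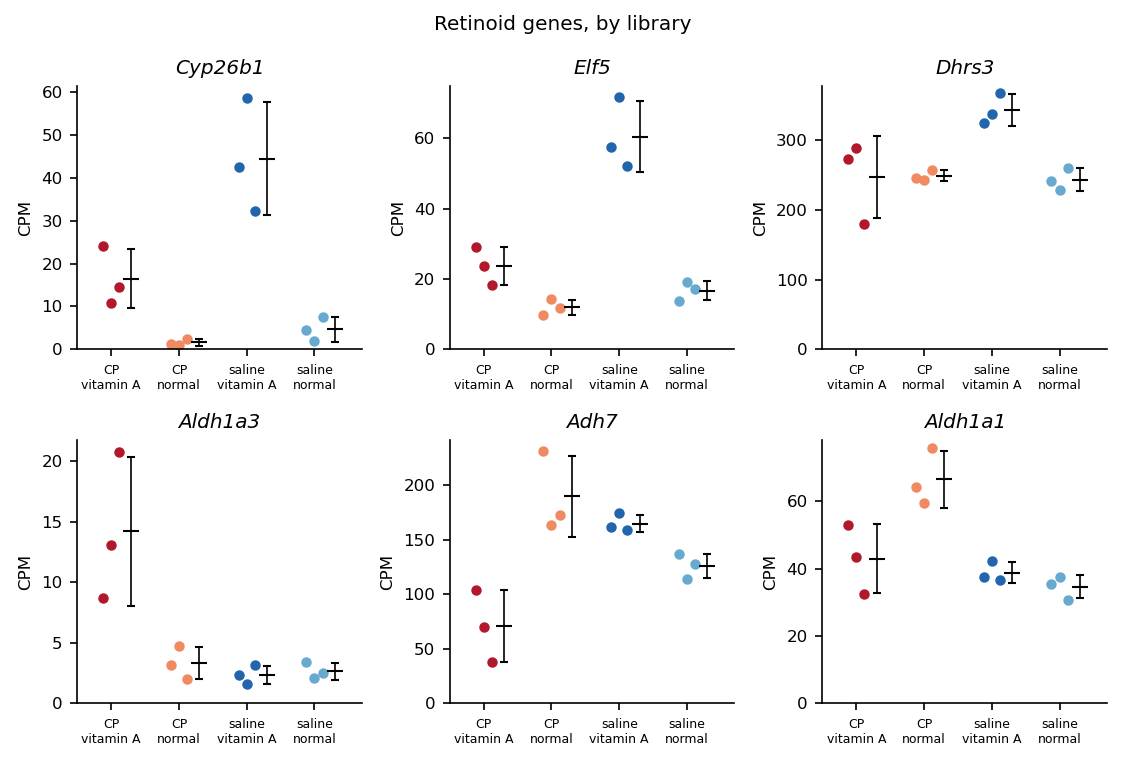
CPM of 6 retinoid genes in each of the 12 bladders, drawn with vitamin A left of normal diet and CP left of saline, and with the mean and SD of 3. Cyp26b1 and Elf5 are higher in vitamin A bladders in both settings, Aldh1a3 is higher and Adh7 and Aldh1a1 are lower in vitamin A bladders after CP.

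Of 22 basal cell genes 17 were above 0 with a median of 0.338 (0.519 without the first vitamin A bladder after saline). At an unadjusted p under 0.05 there were 6 above (27.3%) and 1 below (4.55%), against 3.7% and 4.09% of all genes tested. The basal keratin gene Krt5 had 2100, 3160 and 2270 CPM in vitamin A bladders after cyclophosphamide, against 2090, 1860 and 1990 in normal diet bladders. After saline it had 567, 637 and 581 CPM in vitamin A bladders, against 1080, 954 and 983 in normal diet bladders, so the larger gap between diets was the one after saline, and the interaction was 1.08 (SE 0.267, adjusted p = 0.196). Itga3, a laminin-binding integrin gene, had 339, 591 and 590 CPM in vitamin A bladders after the drug, against 170, 183 and 204 in normal diet bladders, and 90.8 to 133 CPM in the 6 saline bladders (interaction 1.22, SE 0.328, adjusted p = 0.273). Itga6 had 0.91, and the laminin chain genes Lama3 and Lamb3 had 0.93 and 0.67. The 1 gene below 0 at an unadjusted p under 0.05 was Igfbp2 (-0.84). The basal markers Krt15, Trp63 and Krt14 had 0.10, -0.01 and 0.83.

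Uroplakin genes, which encode the plaque of the superficial umbrella cells, lay below 0. Upk3a had 841, 557 and 362 CPM in vitamin A bladders after cyclophosphamide, against 1330, 1210 and 791 in normal diet bladders, an overlap at the edge, and 1570 to 1650 CPM in the 6 saline bladders. Its interaction was -0.95 (SE 0.362, adjusted p = 0.495), and Upk1a had -0.67, Upk2 -0.56 and Upk1b -0.50. Of 26 differentiation genes 17 were below 0 with a median of -0.136, which was -0.00491 without the third and -0.28 without the second vitamin A bladder after the drug, and 3 below and 0 above had an unadjusted p under 0.05. Squamous genes were split, with 13 of 27 above 0 and a median of -0.00244 (0.368 without the first vitamin A bladder after the drug), and DESeq2 called none of either list. Krt13, a keratin of non-cornified squamous epithelia, had 13.0, 39.1 and 45.4 CPM in vitamin A bladders after the drug, against 5.35, 4.36 and 10.5 in normal diet bladders, and at most 1.09 CPM in the 6 saline bladders (interaction 2.08, SE 0.789, adjusted p = 0.491).

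Acute inflammatory genes were split, and most interferon genes lay below 0. Of 32 cytokine, chemokine, prostaglandin, adhesion and signalling genes, 20 were above 0 and 12 below. The 12 include the chemokine genes Ccl2 (-0.44), Ccl7 (-0.68) and Ccl12 (-1.05). Of the 32 genes 9 above and 0 below had an unadjusted p under 0.05, and the list median was 0.497. It was 0.772 without the first vitamin A bladder after the drug and 0.302 without the first normal diet bladder after saline. Socs3, which damps cytokine receptor signalling, had 76.6, 72.5 and 101 CPM in vitamin A bladders after cyclophosphamide, against 39.4, 53.6 and 47.6 in normal diet bladders. In saline-treated mice it had 6.22, 6.54 and 9.63 CPM in vitamin A bladders, against 9.96, 10.9 and 17.9 in normal diet bladders, with an interaction of 1.61 (SE 0.394, adjusted p = 0.187). The neutrophil-attracting chemokine gene Cxcl1 had 4.95, 6.22 and 8.21 CPM in vitamin A bladders after the drug and 1.05, 1.82 and 2.41 in normal diet bladders (2.42, SE 0.737). Il6 had 0.873, 2.42 and 2.54 CPM in vitamin A bladders after the drug, against 0, 0.242 and 0.368 in normal diet bladders, and was at or near 0 after saline, so no interaction is quoted for it.

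Of 36 interferon response genes 34 were below 0 with a median of -0.448, but only 3 had an unadjusted p under 0.05 and DESeq2 called none. Irgm1, an interferon-induced GTPase gene, had 39.7, 32.7 and 33.4 CPM in vitamin A bladders after cyclophosphamide, against 30.9, 38.9 and 35.2 in normal diet bladders. The saline values were 23.7, 24.2 and 42.3 CPM in vitamin A bladders, against 22.5, 16.6 and 15.8 in normal diet bladders, so the gap between diets behind its interaction of -0.73 (SE 0.276, and -0.45 without the third vitamin A bladder after saline) was in the saline pair. The median of the list was -0.21 without the third vitamin A bladder after saline and -0.151 without the second normal diet bladder after the drug. Reg3g, an antibacterial lectin gene, had 38.8, 53.3 and 35.6 CPM in vitamin A bladders after the drug, against 71.4, 42.1 and 57.3 in normal diet bladders. Its saline values were 1.95, 2.02 and 7.75 CPM in vitamin A bladders, against 0.537, 1.15 and 0.274 in normal diet bladders. Here too the diets overlapped after the drug and were apart after saline, with an interaction of -3.07 (SE 0.689, adjusted p = 0.147).

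**Figure D5:**
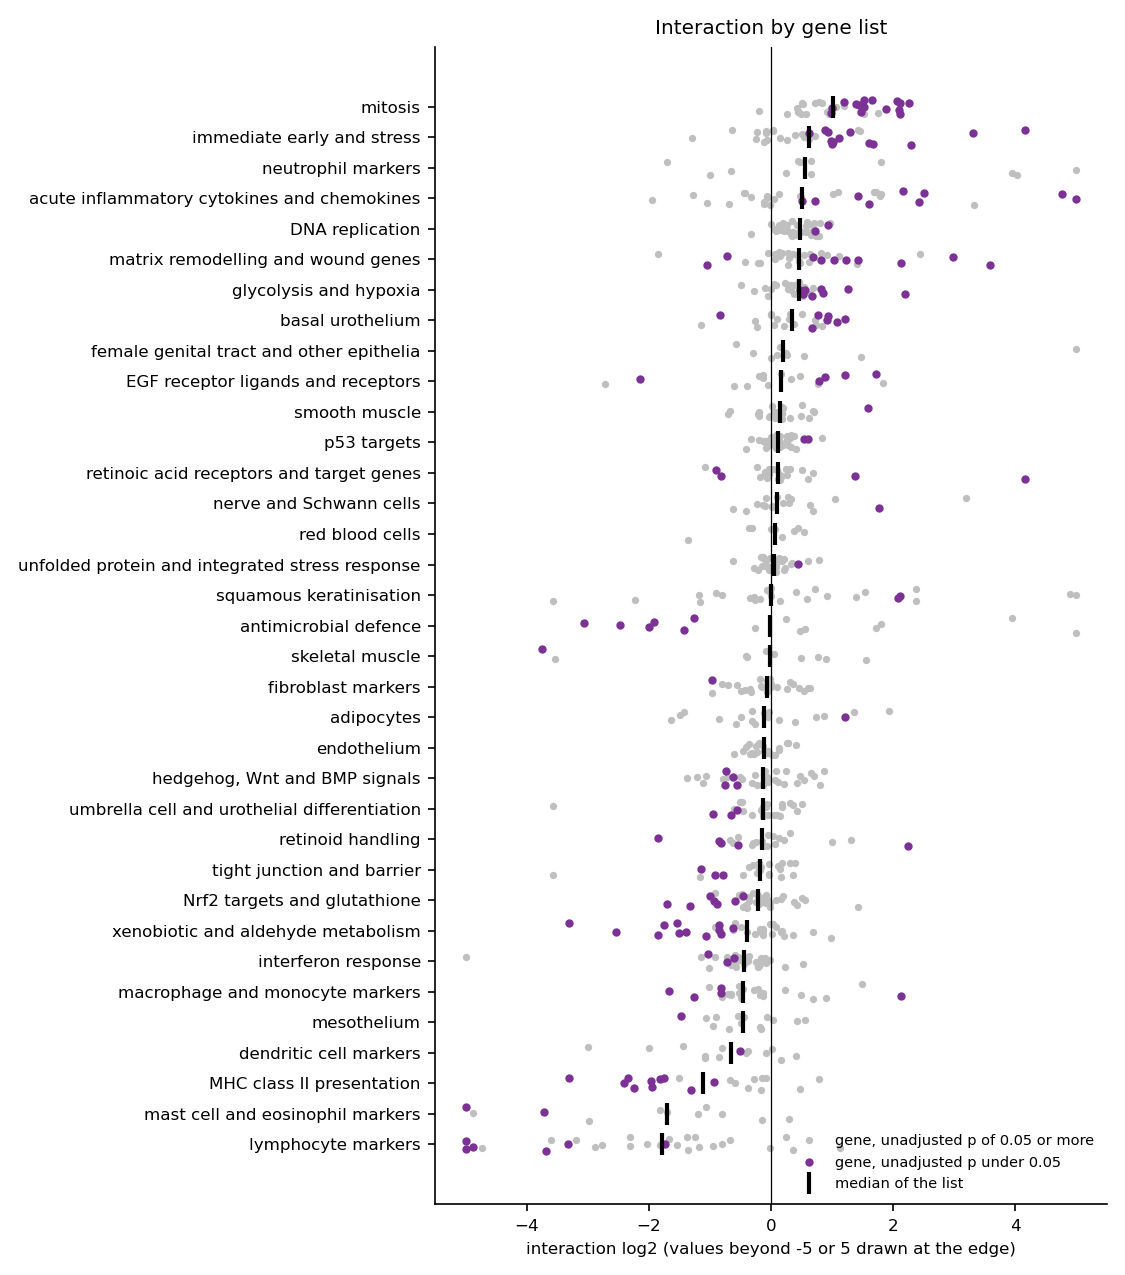
Interaction log2 of each tested member of the 35 gene lists, with the median of each list as a bar. Members at an unadjusted p under 0.05 are coloured. The mitosis list has the highest median (1.02), and the class II list has 10 of 20 coloured members, all below 0.

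The median interaction was 0.15 for 25 smooth muscle genes, -0.0746 for 25 fibroblast genes, -0.125 for 23 endothelial genes, 0.103 for 19 nerve and Schwann cell genes and 0.0385 for 28 genes of the unfolded protein response, with at most 1 gene of each at an unadjusted p under 0.05. All 5 medians changed sign without 1 library. Smooth muscle ran from -0.0904 without the third to 0.349 without the second vitamin A bladder after the drug, and fibroblasts from -0.502 without the first to 0.106 without the second. Endothelium ran from -0.229 without the first normal diet bladder after the drug to 0.0478 without the first vitamin A bladder after saline. The nerve list was -0.0254 and the unfolded protein list -0.0276 without the third vitamin A bladder after saline. Signals of the hedgehog, Wnt and BMP families had a median of -0.127 over 34 genes with 4 (11.8%) at an unadjusted p under 0.05, all below 0. Tight junction genes had one of -0.178 over 23 genes with 3 (13%), all below 0. Antimicrobial genes had a median of -0.0125 over 14 genes, of which 6 (42.9%) were at that level, all below 0, against 4.09% of all genes tested. The antimicrobial median was -0.694 without the third vitamin A bladder or 0.166 without the third normal diet bladder after the drug. Adipocyte genes had a median of -0.112 over 19 genes, and -0.793 without the third vitamin A bladder after cyclophosphamide. The medians were -0.0226 for 10 skeletal muscle genes, 0.0617 for 9 red blood cell genes and 0.193 for 10 genes of other epithelia, and without 1 library they ran from -0.389 to 0.349, -0.489 to 0.364 and 0.0902 to 0.235.

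The medians of some further lists moved widely when 1 library was left out. Neutrophil genes had 0.559 over 12 genes, 0 of them at an unadjusted p under 0.05, and -0.162 without the third vitamin A bladder after cyclophosphamide. Mast cell and eosinophil genes had -1.71 over 11 genes with 2 at that level, and -4.99 without the first vitamin A bladder after cyclophosphamide. Mesothelial genes had -0.468 over 14 genes with 1 at that level, and -1.06 without that same bladder.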

How the data were processed

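The deposited table of whole-number counts per gene was used as the authors deposited it. The builds and tools listed are GRCm39 for the genome, and DESeq2 (1.20.0), HISAT2 (2.0.5) and featureCounts (1.5.0-p3), per the submitters' processing notes. No source used here says what each tool did, whether counting used strand, or how multiply matched reads were treated, so a gene and an antisense or near-identical partner may share reads. Groups were read from the sample titles. Of 60750 features, 14417 carry no gene name (0.482% to 0.81% of the counts of the 12 libraries) and were left out of library sizes and the main test. The authors' other deposited tables were not used.

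In R 4.3.3, edgeR 4.0.16 was fitted to all 18 libraries with 1 mean for each of 6 groups (TMM scaling, filterByExpr, robust quasi-likelihood test, 12 residual degrees of freedom), and p-values were adjusted by Benjamini and Hochberg over 19323 genes, with a threshold of 0.05. The groups outside the contrast were mice on the enriched diet and mice on the normal diet, each 3 days after cyclophosphamide. They share the scaling, the filter and the estimate of the spread, and none of their libraries was left out in turn. Log2 values are fitted, and intervals are 95%. Alternatives used DESeq2 1.42.0, limma 3.58.1 voom, RLE scaling, other filters and left-out libraries. P-values measure the spread between mice of the same group, which may be cage mates, since mice were housed in groups of 3 and no cage is given. The labels call the libraries biological replicates. For a single pair of groups, exact permutation of 3 against 3 could not go below 0.1, a limit that is not that of the interaction. The fit was tested on simulated data with the same spread for every gene and large planted interactions only, so that test does not measure the power for smaller ones.

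Genes named are the 12 of smallest p in each direction whose mean log2 CPM reached 1, a list of 44 fixed genes, and in each list up to 3 members of smallest p. Further genes named (such as Pgk1, Lama3, Cyp1a1, Igfbp2 and Rps27) were added after their values were seen. The contrast, the 35 gene lists and the genes described were chosen with earlier results of these data known. Promoter letters come from RefSeq's table for GRCm38.p6, and no coordinates were converted between builds.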

Additional observations from a re-analysis of the deposited data

How the results depend on the processing

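The count of 0 genes past an adjusted p of 0.05 held with RLE scaling, with unnamed features kept and with a replicate block, and was 25 without the filter on low counts, 116 in DESeq2, 178 in limma-voom and 19 on the 12 libraries alone. Leaving out 1 of those 12 gave 0 to 39. At an unadjusted p under 0.05 there were 1505 genes, 2579 in limma-voom, where the second vitamin A bladder after saline had a weight of 6.73 and the other 11 of the 12 libraries 0.555 to 2.11, and 1271 to 1952 without 1 library. Among libraries 3 days after cyclophosphamide, which also entered that fit, the second vitamin A bladder had a weight of 0.152. The third normal diet bladder there had one of 4.41. All 116 calls of DESeq2 had the same sign and an unadjusted p under 0.05 in edgeR. The causes of these differences were not tested.

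Of 18 pairs of libraries with the same replicate number, 4 had a correlation of deviations over 0.1 (range -0.307 to 0.312). With 3 libraries per group, such correlations cannot exclude a pairing by replicate number. The replicate block gave 0 calls and 1427 genes at an unadjusted p under 0.05.

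Of 96 genes under 19 settings, 1688 results kept direction and side, 120 passed as well, and 16 changed sign. Cyp26b1 was -0.32 in limma-voom, -0.025 with the replicate block and -0.49 to 0.51 without 1 library. Without 1 library Lrat ranged from -0.66 to 0.48, Krt20 from -0.24 to 0.088, Cdkn1a from -0.16 to 0.0061 and Ereg from -0.51 to 0.28.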

Other observations

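Gasdermin and elastin genes had their larger diet difference after saline. Gsdmc2, of a family that includes pore-forming proteins, had 743, 1110 and 636 CPM in vitamin A bladders after cyclophosphamide, against 659, 914 and 755 in normal diet bladders. After saline it had 524, 596 and 456 CPM in vitamin A bladders, against 200, 209 and 267 in normal diet bladders. The interaction was -1.15 (SE 0.322, adjusted p = 0.288 in edgeR), and its near-identical relative Gsdmc3 had -0.91. Eln, which encodes elastin, had 62.4, 34.9 and 57.5 CPM in vitamin A bladders after the drug, against 42.4, 51.0 and 46.0 in normal diet bladders, and 178, 115 and 118 CPM against 67.5, 58.0 and 58.6 in vitamin A and normal diet bladders after saline (interaction -1.05, SE 0.295, adjusted p = 0.288). In these genes the diets overlapped after the drug and were apart after saline.

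Single genes of other lists had small p without passing. Sox10, a Schwann cell transcription factor gene, had 4.41, 4.12 and 5.37 CPM in vitamin A bladders after cyclophosphamide, against 1.62, 1.82 and 2.62 in normal diet bladders (1.77, SE 0.507, adjusted p = 0.301). The muscle chaperone gene Hspb7 had 98.3, 111 and 300 CPM in vitamin A bladders after the drug, against 42.9, 63.7 and 70.2 in normal diet bladders (1.59, SE 0.476), and 0.89 without the third vitamin A bladder. Bmp7, a secreted signal of urothelium and stroma, had 98.0, 88.6 and 68.2 CPM in vitamin A bladders after the drug, against 165, 139 and 135 in normal diet bladders (-0.74, SE 0.237, adjusted p = 0.372).

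Of 1946 unnamed features tested beside the named genes, 0 passed in edgeR and 105 had an unadjusted p under 0.05.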
